A study of Mus musculus with 2 samples.

Results

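The p53 pathway was examined through 10 genes, namely Trp53, which encodes p53, its inhibitors Mdm2 and Mdm4, and the p53-responsive genes Ccng1, Plk2, Sesn1, Sesn2, Gadd45a, Zmat3 and Phlda3. Every probe set that the platform annotation assigned to these genes was taken, whatever its value. This gave 21 probe sets of 45101 on the array, for 9 of the 10 genes. No probe set in the annotation used here was assigned to Trp53 alone, so Trp53 itself is not analysed here.

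Total RNA was measured on 2 Affymetrix arrays, 1 of cells from wild type mice and 1 of cells from mice in which the TIF1γ gene (Trim33) had been conditionally inactivated, named TIF1γ Δ/Δ. The cells of both were KLS cells sorted from bone marrow, which lack lineage markers and carry c-kit and Sca and are enriched in haematopoietic stem and progenitor cells. The labels give the wild type as wtwt, and name no strain, age, Cre driver, inducing agent or number of pooled mice for either genotype. Each genotype had 1 array, so no difference below has a replicate check, an error between mice or a p-value, and the number of arrays limits every value.

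p53 is a transcription factor that is made all the time and destroyed almost as fast. Mdm2 attaches ubiquitin to it and Mdm4 covers its activating domain, and because Mdm2 is itself switched on by p53, the pair forms a feedback loop. When DNA damage or other stress frees p53 from them, it switches on genes that halt the cell cycle, restrain growth signalling, repair DNA or kill the cell. In haematopoietic stem cells p53 is known to favour quiescence and to limit self-renewal.

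Signals are deposited MAS5 intensities in arbitrary units, and a difference is log2 of the TIF1γ Δ/Δ signal over the wild type signal, after centring. A probe set counted as measured on an array when it reached the array's median, 14.4 for wild type and 11.7 for TIF1γ Δ/Δ. Of the 21 probe sets, 15 were measured on both arrays, 3 on the TIF1γ Δ/Δ array alone, and 3 on neither. All 9 genes were measured on both arrays through their brightest probe set, which stands for the gene below. In bulk RNA, fewer cells of a type and less RNA per cell cannot be told apart.

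The targeted gene was lower on the array labelled TIF1γ Δ/Δ. Trim33 read 379 in wild type and 172 in TIF1γ Δ/Δ cells with its brightest probe set (log2 -1.12) and 61.0 and 34.5 with 1455189_at (log2 -0.80), while its 1459264_at was under the floor on both. The sources used here do not say where these lie relative to the deleted part. Of the markers of the sorted cells, Ly6a, which encodes Sca, had no probe set of its own, and 8 were measured on both arrays with none 2-fold apart. Kit, which the sort selects on, gave 384 and 495, and Cd34 gave 1398 and 2326. Of the 8, 6 were above 0 and 2 below it, the lowest being Procr at 486 and 316 (log2 -0.60). Markers of mature cells were present on the wild type array in spite of the sort. The summed signal of 10 neutrophil marker genes was 30885 in wild type and 138 in TIF1γ Δ/Δ cells, and all 9 measured were at least 2-fold lower. That of 10 macrophage markers was 6231 and 286, with 10 of 10 lower. For 8 erythroid markers the sums were 3591 and 999, with 7 of 7 measured lower, for 6 B lineage markers 678 and 205, with 3 of 4 lower, and for 8 T and NK cell markers 1623 and 1199, with 4 of 7 lower. For 6 megakaryocyte markers they were 1695 and 2767, with 2 of 6 at least 2-fold higher, and for 4 mast cell and basophil markers 1290 and 1440, with none 2-fold apart. No signal on either array was listed at 0, and the lowest was 0.023. The Gapdh control read 7.86 times as much at its 3' as at its 5' end in wild type and 7.38 times in TIF1γ Δ/Δ cells. The beta-actin control had the other order, 5.14 times in wild type and 5.54 times in TIF1γ Δ/Δ cells.

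Most of the p53 pathway genes differed little between the arrays. Plk2, a polo-like kinase, was the only one of the 9 genes at least 2-fold apart, and it was 2.17-fold higher on the TIF1γ Δ/Δ array. The other 8 lay between a log2 difference of -0.66, for Gadd45a, and 0.20, for Mdm4. The median over the 9 genes was -0.013, beside 0.044 over the 10365 genes measured, as these were, on both arrays. It was 0.00023 over the 11724 genes measured on at least 1 array, bounds included. Among those 11724 genes 8.55% were at least 2-fold apart, 2.53% higher and 6.01% lower, so 1 of 9 is near the background. By probe set, 1 of 18 measured was at least 2-fold apart, against 8.67% of 20775 measured probe sets annotated to a single gene, 2.77% higher and 5.91% lower. Of the 15 probe sets measured on both arrays, 11 were less than 1.5-fold apart (73.3%), beside 71.9% of all such probe sets.

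**Figure D1:**
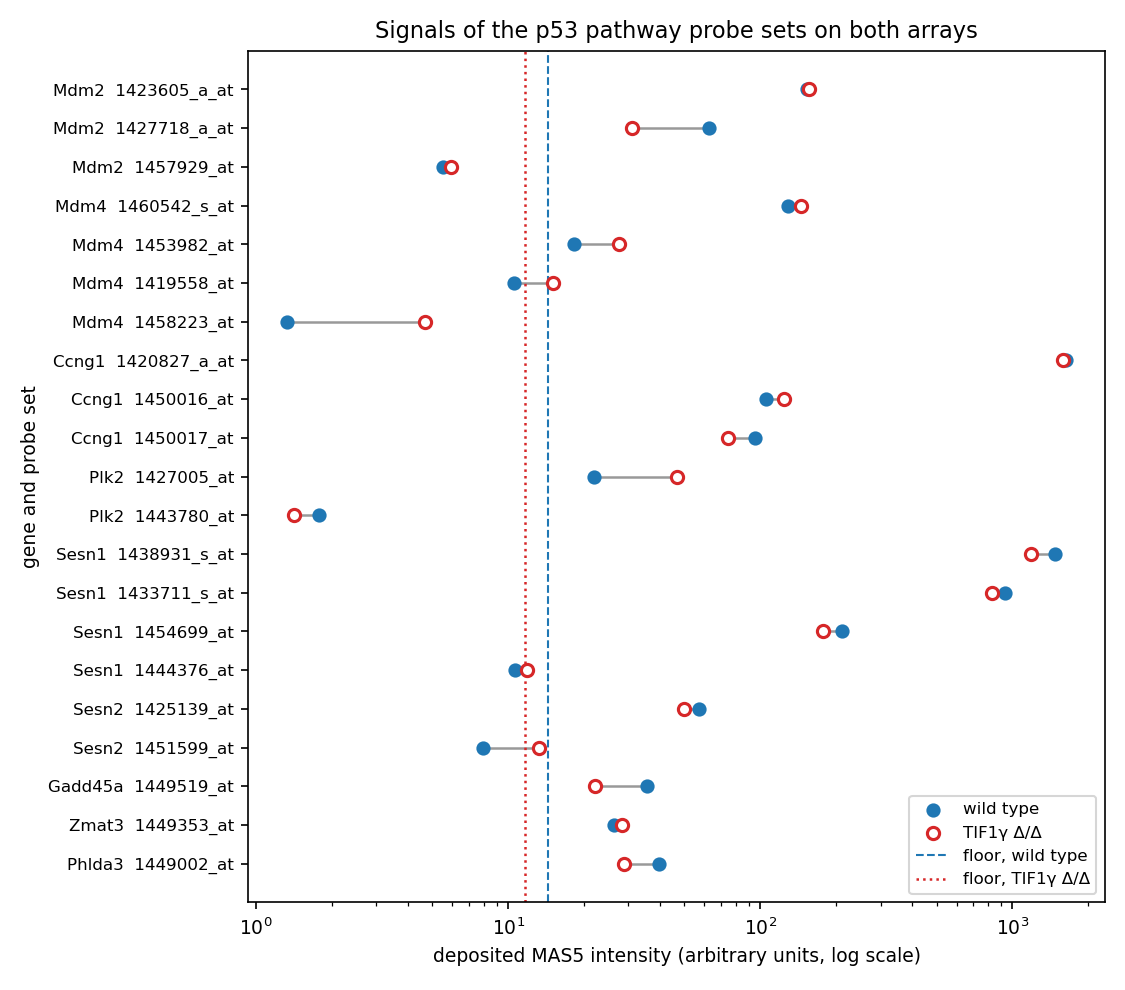
Deposited MAS5 intensity of the 21 p53 pathway probe sets (x axis, log scale, arbitrary units), with a filled point for the wild type and an open point for the TIF1γ Δ/Δ array, joined by a line, 1 array each. Dashed and dotted lines mark the floors of 14.4 and 11.7; most pairs nearly coincide, and the widest gaps above the floors are those of Plk2 (21.9 and 46.9) and of the Mdm2 probe set 1427718_a_at (62.4 and 31.1).

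To set the genes beside their regulatory sequence, RefSeq promoter windows (GRCm38.p6, 250 bases before to 50 after an annotated start, on the gene's strand) were searched for the p53 half-site. The half-site is 3 purines, C, 2 bases that are A or T, G and 3 pyrimidines. It is its own reverse complement, so a single scan reads both strands, and no other motif was searched. A p53 response element is known as a pair of half-sites with a spacer of at most 13 bases. Windows were found for 9 of the 10 genes, 11 windows in all. A half-site was present in 5 of the 11 (45.5%), namely those of Trp53, Mdm2, Ccng1, Gadd45a and the second of the starts of Sesn1, beside 8.36% of all 32851 windows. The matches of the measured genes are printed in capitals to show which of them carry one next to their start; that of Trp53, which has no value here, begins 75 bases before the start and is not printed.
Ccng1 (pair without spacer, chr11:40755237-40755536, minus strand): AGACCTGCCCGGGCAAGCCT
Gadd45a (chr6:67037358-67037657, minus strand): GGGCTAGCCC
Mdm2 (chr10:117710709-117711008, minus strand): GAACTTGCCT
Sesn1 (chr10:41887189-41887488, plus strand): AAGCTTGTTT

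Pairs were counted only where the C and G of both half-sites matched, so a letter off could fall only on the other bases. On that rule Ccng1 was the only member with a pair at most 1 letter off the consensus over 20 bases, which 0.627% of all windows had. The pair begins 195 bases before the start. The half-site of Gadd45a begins 40 bases, that of Mdm2 186 bases and that of Sesn1 173 bases before it. No half-site was in the windows of Plk2, Sesn2, Phlda3 or Mdm4, nor in that of the first start of Sesn1, which says only that those letters are not in these 300 bases. The windows of Ccng1, with the closest match, and of Plk2, the gene furthest apart between the arrays, are given in full, with the pair of Ccng1 in capitals, which holds a half-site and a unit 1 letter off it.
Ccng1 (chr11:40755237-40755536, minus strand): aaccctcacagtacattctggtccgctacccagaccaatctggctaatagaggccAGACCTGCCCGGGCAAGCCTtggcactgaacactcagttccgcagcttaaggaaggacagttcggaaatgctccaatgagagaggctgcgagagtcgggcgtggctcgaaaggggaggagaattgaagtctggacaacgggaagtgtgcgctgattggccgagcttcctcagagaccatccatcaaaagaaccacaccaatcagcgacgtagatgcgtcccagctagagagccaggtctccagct
Plk2 (chr13:110394794-110395093, plus strand): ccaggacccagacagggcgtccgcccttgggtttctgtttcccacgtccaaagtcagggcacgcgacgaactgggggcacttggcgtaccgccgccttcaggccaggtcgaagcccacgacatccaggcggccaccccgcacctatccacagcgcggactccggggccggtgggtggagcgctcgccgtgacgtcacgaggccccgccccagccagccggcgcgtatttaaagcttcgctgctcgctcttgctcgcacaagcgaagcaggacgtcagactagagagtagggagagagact

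The closest match and the largest difference were in different genes. Ccng1, with the pair, had a log2 difference of -0.013, and Plk2, with no match, one of 1.12. The windows of the members had a median GC content of 64.7%, from 43.0% to 71.7%, beside 52.7% over all windows. The Plk2 window had 66.3% and the Ccng1 window 55.7%. A match is a description of the letters and not a site of binding.

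Mdm2, the ubiquitin ligase that p53 both induces and is destroyed by, gave unlike values with its probe sets. The brightest, 1423605_a_at, read 153 in wild type and 155 in TIF1γ Δ/Δ cells, a log2 difference of 0.045. The second, 1427718_a_at, gave 62.4 and 31.1, a log2 difference of -0.98 or 1.97-fold lower, just short of the 2-fold threshold. The third, 1457929_at, was under the floor on both arrays (5.49 and 5.95). The first of these was thus level between the genotypes while the second was lower in TIF1γ Δ/Δ cells, and the gap of 1.03 between them was wider than the median of 0.35 over 2753 genes with 2 probe sets measured on both arrays. Both carry the suffix _a_at, which Affymetrix gave to probe sets that match several transcripts of a gene. The sources used here do not say which transcripts they match. The difference of the brightest probe set was -0.069 with quantile and -0.083 with loess scaling, so no direction is given for Mdm2, and the mean of both measured probe sets was -0.47.

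Mdm4, the relative of Mdm2 that inhibits p53 without destroying it, read slightly higher in TIF1γ Δ/Δ cells. Its brightest probe set, 1460542_s_at, gave 128 and 145 (log2 0.20). The dimmer 1453982_at gave 18.2 and 27.5 (log2 0.61), not far above the floor. The probe set 1419558_at was below the wild type floor (10.6) and at 15.1 on the other array, at least 1.06-fold higher, and 1458223_at was under the floor on both. The probe sets measured on both arrays thus had the same direction, 2 of 2, and the gap between them was 0.42.

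Ccng1 encodes cyclin G1, which guides a phosphatase to Mdm2 and is a well-known p53 target. Its brightest probe set, 1420827_a_at, read 1628 in wild type and 1587 in TIF1γ Δ/Δ cells (log2 -0.013). With 1450016_at the signals were 106 and 124 (log2 0.25), and with 1450017_at they were 94.9 and 74.4 (log2 -0.33). These probe sets thus differed in direction, over a range of 0.58, beside a median range of 0.62 over 1097 genes with 3 probe sets measured on both arrays. Such a range measures disagreement between probe sets and not between mice.

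Plk2 encodes a kinase of the polo family that takes part in centriole duplication and is induced by p53 after damage. Its probe set 1427005_at read 21.9 in wild type and 46.9 in TIF1γ Δ/Δ cells, a log2 difference of 1.12. The other probe set, 1443780_at, was under the floor on both arrays (1.77 and 1.42). The higher value of Plk2 thus rests on 1 probe set, whose wild type signal was 1.52 times the floor. Among the 6850 probe sets of similar signal (geometric mean of 16 to 64), 3.71% were higher and 10.1% lower by 2-fold or more, 13.8% in all. With the floor at the 65th percentile the log2 difference of Plk2 was a bound of 0.37. It was 1.24 with quantile and 1.25 with loess scaling. Of the 6 megakaryocyte markers, 5 differed in the same direction as Plk2 and 1, Gp1bb, in the other (log2 -0.32), with a median log2 of 0.72. The part of these cells in the value of Plk2 was not tested.

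The sestrins restrain growth signalling through mTORC1, Sesn2 also as a sensor of leucine. Sesn1 gave 1474 and 1187 with 1438931_s_at (log2 -0.29), 932 and 832 with 1433711_s_at (log2 -0.14), and 211 and 178 with 1454699_at (log2 -0.22). All 3 read lower in TIF1γ Δ/Δ cells by a similar, small amount. Their range of 0.15 was among the narrower ones, since 85.0% of the 4534 genes with several such probe sets had a wider range. The remaining one, 1444376_at, was measured on the TIF1γ Δ/Δ array alone at 11.9, under the wild type floor, and has no fold. Sesn2 gave 57.0 and 49.8 with 1425139_at (log2 -0.17). Its second probe set, 1451599_at, reached only the lower floor of the TIF1γ Δ/Δ array (7.96 and 13.3) and has no fold. Both sestrins thus differed by at most 1.22-fold with every probe set measured on both arrays.

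Gadd45a, a stress protein that binds the cell cycle kinase complex of cyclin B and the repair factor PCNA, was the lowest of the members on this scale. Its only probe set, 1449519_at, read 35.5 in wild type and 22.1 in TIF1γ Δ/Δ cells, a log2 difference of -0.66 or 1.58-fold. Phlda3, a protein with a lipid-binding domain that competes with the kinase Akt for the membrane, gave 39.6 and 28.7 with its only probe set, 1449002_at (log2 -0.44). Zmat3, an RNA-binding zinc finger protein that regulates splicing, gave 26.2 and 28.2 with 1449353_at (log2 0.13). These genes each rest on 1 probe set at under 3 times the floor, and none was 2-fold apart. The direction of each was the same with no centring, quantile and loess scaling. The neutrophil and macrophage markers were lower together with Gadd45a and Phlda3, and their part in these values was not tested.

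**Figure D2:**
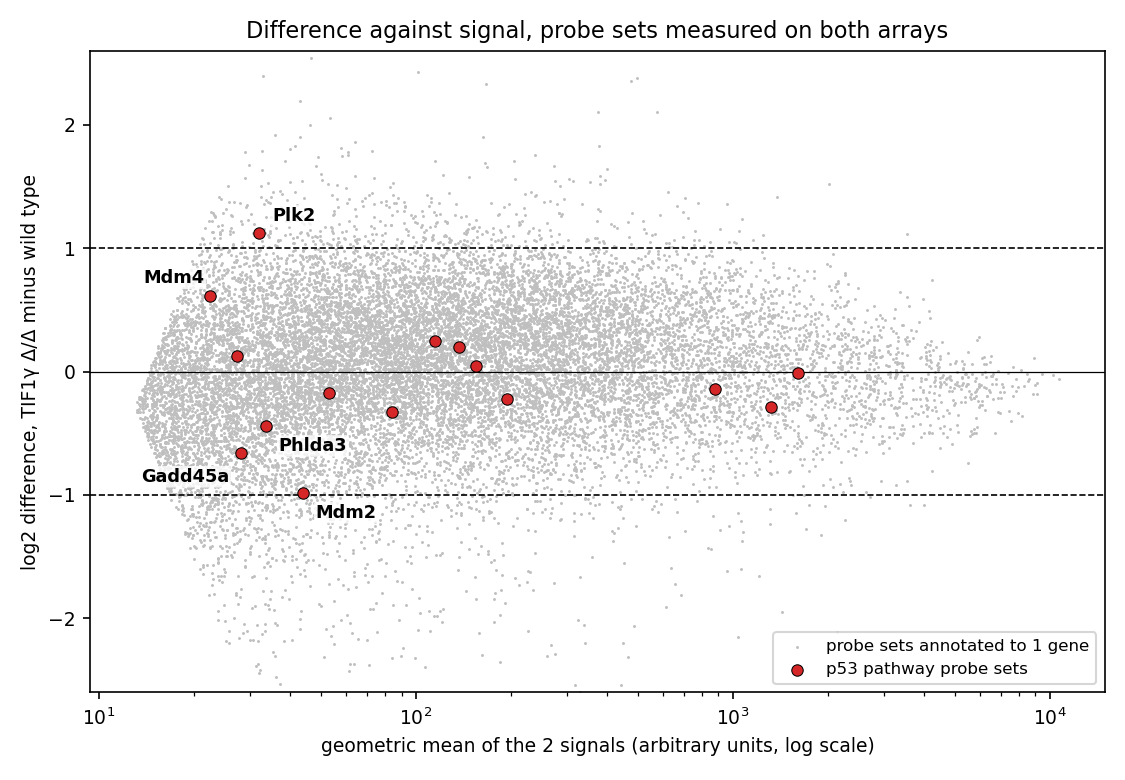
Log2 difference, TIF1γ Δ/Δ minus wild type (y axis), against the geometric mean of the signals (x axis, log scale, arbitrary units) for the probe sets annotated to 1 gene and measured on both arrays, 1 array per genotype. Red points are the 15 p53 pathway probe sets; dashed lines mark 2-fold, and 8 grey points above and 45 below the plotted range of 2.6 are not shown. Plk2 (1.12) and the dimmer Mdm2 probe set (-0.98) lie near the dashed lines at low signal, and the brightest members lie near 0.

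Other regulators of p53 were set beside these genes from a list of 28, of which Rpl5 had no probe set of its own and Cdkn2a, whose product Arf blocks Mdm2, was under the floor on both arrays. None of the 26 measured genes was at least 2-fold apart with its brightest probe set, while 8.55% of all genes were. Their median was 0.25, and 21 of 26 were above 0 (80.8%), beside 53.1% of all genes measured on both arrays. With quantile scaling 18 and with loess scaling 19 of 26 were above 0. The comparison with all genes was not matched for signal. Dimmer probe sets did reach 2-fold in Ube3a, Huwe1 and Atr, genes named here after their values were seen. The Ube3a probe set 1416682_at was at least 2.22-fold higher, that of Huwe1, 1448056_at, at least 2.01-fold lower, and that of Atr, 1438921_at, 2.92-fold lower. The brightest members of the list were Npm1, a nucleolar protein that can bind Mdm2 (6967 and 6561, log2 -0.063, but 0.092 with loess scaling), the ribosomal protein Rpl11, which also binds Mdm2 (4048 and 2810, log2 -0.50), Ywhaz, a 14-3-3 protein (2654 and 2904, log2 0.15), and Trim28, a relative of TIF1γ that acts with Mdm2 (2016 and 2631, log2 0.41). The probe sets of Ywhaz differed, from log2 -0.79 with 1436981_a_at to 0.94 with 1416103_at, and 6 of 7 were above 0.

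Damage kinases, a damage-site protein and a further ubiquitin ligase are also on that list, and all those in this paragraph were named after their values were seen. Chek1 gave 972 and 1344 (log2 0.49) and was above 0 with all 4 measured probe sets, whereas the kinase Chek2 gave 277 and 273 (log2 -0.00019). Atm gave 93.1 and 120 (log2 0.39). Atr gave 119 and 216 with its brightest probe set (log2 0.89), but 58.8 and 19.8 with 1438921_at (log2 -1.55) and 49.7 and 43.5 with 1445091_at (log2 -0.17), so its direction depended on the probe set. Trp53bp1, a damage-site protein that binds p53, gave 495 and 880 (log2 0.85), and its 3 probe sets measured on both arrays were above 0, but of the 3 measured on 1 array, 1446100_at was a bound of at least 1.31-fold higher and 1457812_at and 1442316_x_at were bounds of at least 1.69-fold and 1.60-fold lower, so its direction too depended on the probe set. The ubiquitin ligase Rchy1, which also targets p53, gave 259 and 140 (log2 -0.87) with its only probe set.

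Further p53-responsive genes were counted from a list of 40, of which 35 were measured. Bax, Gdf15 and Fdxr had no probe set of their own, and Eda2r and Sfn were under the floor on both arrays. At 2-fold, 1 was higher and 3 were lower, 4 of 35 or 11.4% beside 8.55% of all genes. The median was -0.041 over the 35, of which 5 were bounds, 3 of them without a fold. It was -0.063 over the 30 measured on both arrays. The higher gene was Cdkn1a, the cyclin-dependent kinase inhibitor p21, at 171 and 476 with 1424638_at (2.83-fold). Its other probe set, 1421679_a_at, gave 53.2 and 71.3 (log2 0.44), and the mean of both was 0.97, under 2-fold. These counts take the brightest probe set of each gene, and dimmer ones of Rrm2b and Aen differed from it. Rrm2b was at log2 0.0052 with its brightest, but 2.73-fold lower with 1437222_x_at and 3.42-fold lower with 1437221_at. Aen was at log2 0.39 with its brightest, but 2.21-fold higher with 1437373_at and 2.42-fold higher with 1450506_a_at. Rrm2b and Aen were named after their values were seen. Of the 2 promoter windows of Cdkn1a, 1 held 2 half-sites as an exact pair, which 0.0731% of all windows had, and the other held no half-site. The pair printed below is the one with the fewest letters off the consensus. Its second half-site is followed without spacer by a unit 1 letter off, which is not printed, and the letters do not say which of these p53 binds. Over the list, 10 of 48 windows held a half-site (20.8%), beside 8.36% of all windows. A pair at most 1 letter off, with C and G matched as before, was in 3 of the 48 (6.25%), beside 0.627% of all windows, and an exact pair in 1.
Cdkn1a (pair with a spacer of 12 bases, chr17:29090729-29091028, plus strand): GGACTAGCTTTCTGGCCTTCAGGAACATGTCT

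The lower genes were Ephx1, a detoxifying epoxide hydrolase (78.5 and 15.97, log2 -2.27), Pltp, a phospholipid transfer protein (120 and 35.2, log2 -1.74), and Dram1, a lysosomal protein of autophagy (122 and 46.2, log2 -1.37). The macrophage marker genes, with sums of 6231 and 286, differed in the same direction as these genes, and their part in them was not tested. The brightest of the list were under 1.5-fold apart, namely the ribosomal protein relative Rps27l (2686 and 1903, log2 -0.47), Ei24 (980 and 1073, log2 0.15), Casp1 (596 and 551, log2 -0.090) and Trp53inp1 (594 and 515, log2 -0.18). Of the genes that carry p53's signal to cell death, Bbc3, which encodes Puma, gave 31.4 and 38.5 (log2 0.32), Pmaip1, which encodes Noxa, gave 5.41 and 13.8 and has no fold, and Apaf1 gave 155 and 253 (log2 0.73). The death receptor gene Fas read lower, at 20.1 and 1.49, at least 1.69-fold. Tnfrsf10b, another death receptor gene, gave 3.86 and 14.0 and has no fold, and Pidd1 gave 29.6 and 28.7 (log2 -0.022). These cell death genes were named after their values were seen.

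**Figure D3:**
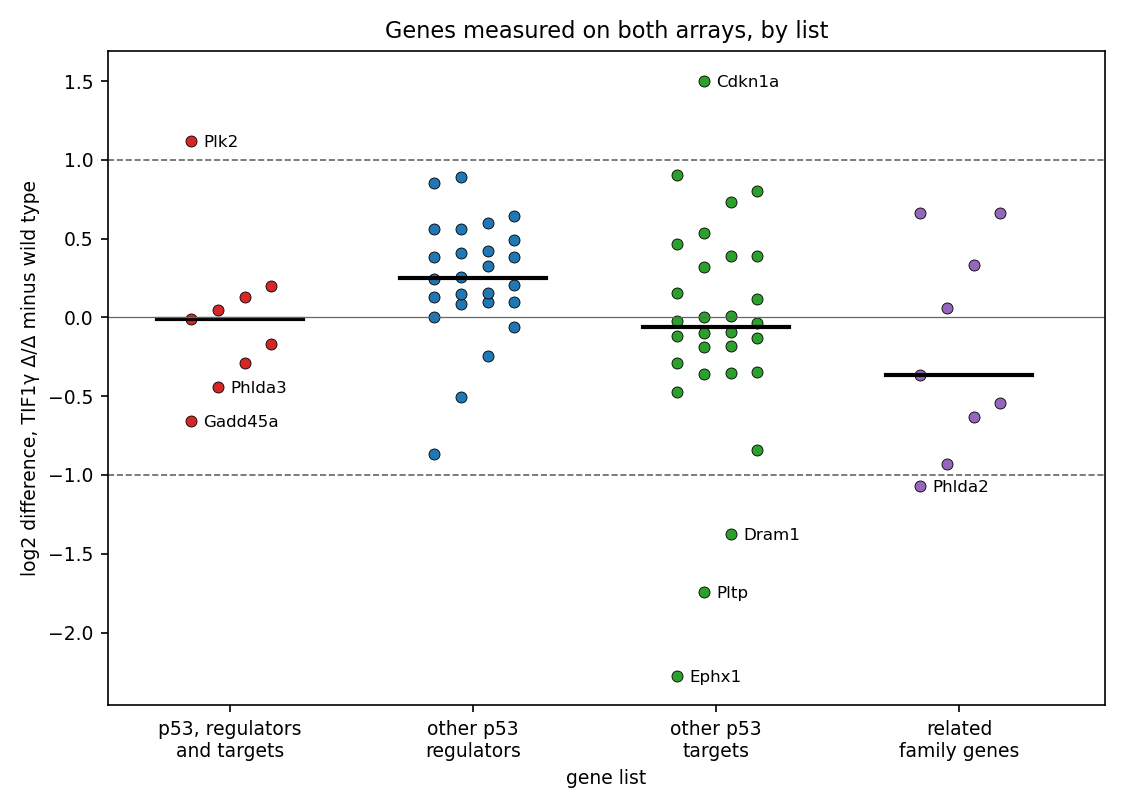
Log2 difference, TIF1γ Δ/Δ minus wild type (y axis), of genes measured on both arrays, 1 point per gene from its brightest probe set, in the 9 p53 pathway genes, 26 other regulators, 30 other target genes and 9 related family genes; bars are medians and dashed lines mark 2-fold. The outlying genes are Plk2 and Cdkn1a above, and Ephx1, Pltp, Dram1 and Phlda2 below; no regulator reaches a dashed line.

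The relatives of the p53 pathway genes were examined to see whether families shared a direction. Of 11 relatives, Trp63 and Trp73, the other genes of the p53 family, were under the floor on both arrays, and 1 of the 9 measured, Phlda2, was at least 2-fold apart (51.3 and 24.0, log2 -1.07), which is 11.1% beside 8.55% of all genes. It was under 2-fold with quantile and with loess scaling. The 3 Gadd45 genes all read lower in TIF1γ Δ/Δ cells. Gadd45b gave 108 and 68.6 (log2 -0.63) and Gadd45g gave 32.9 and 16.99 (log2 -0.93), the latter not far above the floor, beside Gadd45a (log2 -0.66). Of their probe sets measured on both arrays 5 of 5 were below 0, beside 8453 of 17738 such probe sets annotated to a single gene. The 3 Phlda genes were lower too, with Phlda1 at 38.7 and 29.5 (log2 -0.37). The neutrophil and macrophage markers were lower as well, and their part in the Gadd45 and Phlda values was not tested. All 4 polo-like kinase genes were above 0, with 6 of 6 probe sets, and of all probe sets measured on both arrays 52.3% were above 0. Plk1, the kinase of mitotic entry, gave 130 and 202 (log2 0.66), Plk4, which starts centriole duplication, gave 498 and 774 (log2 0.66), and Plk3 gave 26.7 and 27.4 (log2 0.060). The third sestrin, Sesn3, gave 92.9 and 115 (log2 0.33), opposite in sign to Sesn1 and Sesn2, and cyclin G2, from Ccng2, gave 968 and 652 (log2 -0.55). The sign of each measured relative was the same with no centring, quantile and loess scaling. The median over the 9 relatives was -0.37, and apart from Phlda2 and the brightest of them, Ccng2, Plk4, Plk1 and Sesn3, they were named after their values were seen.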

How the data were processed

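Biotin-labelled cRNA from 25 ng of total RNA per sample was hybridised to Affymetrix arrays, per the labels' protocols. The deposited values are linear intensities of probe sets, for which the submitters' processing notes name MAS5. Its version, filters and detection calls are not stated in the sources used here. The mean after trimming 2% of probe sets at each end was 100 on both arrays, so the authors' values were already scaled. MAS5 subtracts mismatch signal, which makes low values noisy.

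The 64 control probe sets were left out. The platform annotation gave 34945 probe sets 1 gene, 932 several and 9160 none. Symbols were updated by Entrez identifier to RefSeq of GRCm38.p6 (34741 matched), giving 18193 genes. Probe sets with several genes named none. Differences were centred on the median of probe sets measured on both arrays (-0.024). A signal under the floor on 1 array was replaced by that floor and gives a bound, printed as at least N-fold, or no fold where the bound lay on the wrong side of 0. The TIF1γ Δ/Δ floor was the lower, so bounds reach further for lower genes. With 1 array per genotype there was no test, and 2-fold was a rule of size.

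The members and lists were chosen with earlier results of these data known. The text names all members, the genes of the other p53 lists at least 2-fold apart and the 4 brightest of each, and marker genes as examples; others are marked as named after their values were seen. Alternatives covered scaling, floor, pseudocount, threshold and probe set rule. The procedure was tested on simulated data, made from the wild type array with added scatter. Changes were planted only in genes brighter in wild type than Plk2, Gadd45a, Zmat3, Phlda3 and Sesn2, so the detection of changes at such low signal was not tested. Python 3.11.15, numpy 2.4.6, pandas 2.3.3 and statsmodels 0.14.6 were used.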

Additional observations from a re-analysis of the deposited data

How the results depend on the processing

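The difference of each of the 9 p53 pathway genes kept within the probe set scatter (an SD of 0.45 on the log2 scale around the gene mean, over 4534 genes) under every alternative run that gave a value, except Plk2 under a 65th percentile floor (0.37) and Mdm2 with the mean of measured probe sets (-0.47). That scatter is larger than the main difference of most of these genes, so keeping within it does not mean that the sign held. Shared probe sets were taken as all those with the suffix _s_at, _x_at or _a_at. The suffix _a_at marks several transcripts of a gene, so those of Mdm2 and Ccng1 were not left out for matching other genes. Ccng1 kept its sign under 9 of 10 alternatives, with 0.25 without shared probe sets, and Mdm2 under 6 of 9. The other members kept theirs under every alternative that gave a value. The median of the 9 genes lay between -0.13 and -0.013 under 10 alternatives. Plk2 was above 0 under 10 of 10. With the 65th percentile as floor or with a pseudocount of 16, 0 member genes and 0 member probe sets were 2-fold apart, and 0 relatives. Without centring 2 member probe sets were, the second being that of Mdm2, and without a floor 2. With quantile scaling 1 regulator, Rchy1, and 0 relatives, with loess 0 relatives, and without a floor 1 regulator and 9 other targets were 2-fold apart. A 40th percentile floor gave 6 other targets 2-fold apart, and leaving out shared probe sets gave 3; with the mean of measured probe sets they were 0 higher, since Cdkn1a was then at 0.97, and 4 lower. At 1.5-fold the counts were 4 member probe sets, 2 member genes, 5 regulators, 10 other targets and 5 relatives. At 3-fold they were 0, 0, 0, 2 and 0. The causes were not tested beyond what each setting alters by construction. With the higher median as floor on both arrays none of these counts changed. No value could be had for Mdm2 without shared probe sets, where only 1457929_at is left, nor for Gadd45a and Zmat3 under the 65th percentile floor. No paired analysis was possible because each genotype had 1 array. Low signal limits Plk2, Gadd45a, Zmat3 and Phlda3 most, at under 3 times the floor on the wild type array.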
